A study of Mus musculus with 60 samples.

Results

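The 35 genes described here are general markers of macrophages and of the blood monocytes that give rise to many of them. They were taken by symbol from a list of 35 names, which was drawn up with earlier results of these data known, and each was found among the 54232 gene IDs of the deposited table of raw counts. By role they comprised 8 markers of the cell type (Adgre1, Cd68, Mpeg1, Lyz2, Ms4a7, Ms4a6c, Aif1 and Cx3cr1), 3 genes for its growth factor receptor and transcription factors (Csf1r, Spi1 and Irf8), 6 integrin and general leukocyte genes (Itgam, Itgb2, Ptprc, Laptm5, Cd53 and Cd84), 5 Fc receptor genes (Fcgr1, Fcgr2b, Fcgr3, Fcgr4 and Fcer1g), 9 receptors for microbial or modified molecules (Cd14, Msr1, Clec7a, Clec4d, Clec4n, Tlr2, Tlr4, Tlr7 and Tlr13) and 4 genes of the phagosome and cytoskeleton (Slc11a1, Pld4, Coro1a and Lcp1).

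Liver and both fat depots, subcutaneous and visceral, were sequenced for RNA in mice kept for 12 weeks on normal chow with 11% fat, called the control diet here, or on a Western diet with 42% fat. In each tissue and on each diet, 5 libraries are labelled as treated with NaKtide and 5 as control, which gives 12 groups and 60 libraries, with 5 mice per group by the study's design. NaKtide is a peptide taken from the Na,K-ATPase that binds the kinase Src, and in this study transgenic mice were made to express it by doxycycline at 300 mg/kg in either diet. The labels give no strain, sex or age, and not the promoter or cell type that drives the transgene, although the series title speaks of adipocytes. They also do not say whether the mice without NaKtide carried the transgene or ate doxycycline, so the peptide, the transgene and the drug cannot be told apart. Groups are named below by tissue, diet and NaKtide, and libraries by their replicate number. Equal numbers are not stated to mark 1 mouse, so p-values measure the spread between these libraries only.

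Macrophages are phagocytes that live in every tissue. Their survival depends on signals through the receptor encoded by Csf1r, and their identity on the transcription factor PU.1, the product of Spi1, which acts with partners such as the product of Irf8. In the liver the resident macrophages are the Kupffer cells, which line the sinusoids. In fat, macrophages clear dying adipocytes and the lipid they release, and their accumulation in visceral depots is a well-known feature of obesity.

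Levels are given as CPM, counts of a gene relative to the scaled library total within a tissue. Sums of marker genes of other cells and tissues are given in CPM scaled over all 60 libraries. Differences are given as log2 fold changes with their standard error (SE) from edgeR's quasi-likelihood test. A gene was called where its p-value, adjusted by the Benjamini-Hochberg method over all genes tested in the same comparison, was under 0.05. The filter on low counts kept 29 of the 35 genes in liver, 34 in subcutaneous fat and 35 in visceral fat. Itgam, Ms4a7, Ms4a6c, Clec4d, Tlr4 and Tlr7 were not tested in liver, and Clec4d was not tested in subcutaneous fat. In bulk RNA, fewer cells of a type and less RNA per cell cannot be told apart.

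Depth was 3.18 to 9.78 M counts per library, and the 35 genes together held 682 to 51484 of them. Sums of 6 hepatocyte genes and of 6 adipocyte genes followed the labelled tissue in every library. Within the visceral control group the adipocyte sum ran from 410 to 10207 CPM, and liver libraries reached 337 CPM. Several libraries nevertheless stood apart. Genes of the male reproductive tract and testis (18 genes) summed to over 1000 CPM in 6 visceral libraries, namely control 3, 4 and 5, control with NaKtide 1, and Western with NaKtide 2 and 5, and these are called the tract-rich libraries. The mesothelial pair Msln and Upk3b, which separated the fat depots, summed to 46.3 CPM in subcutaneous Western with NaKtide library 1 and to 0.101 CPM in visceral Western with NaKtide library 1, in each case on the side of the other depot. Visceral control library 4 and visceral Western with NaKtide library 5 were the 2nd closest of all 1770 pairs of libraries by a chi-square of their counts (a mean of 3.36 per gene), although their labels differ in diet and treatment. In liver, Western library 1 lay nearer the Western libraries with NaKtide (median root-mean-square log2 distance 0.57) than its own group (0.68), and Western with NaKtide library 1 lay nearer the Western libraries (0.61) than its own group (0.75). Such crossings were not rare, since 25 of the 60 libraries were nearer another group of their tissue. Results that rest on these libraries are given with and without them.

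The stretches upstream of a few start sites are shown because PU.1 is itself among the 35 genes and its short core word, GAGGAA, can be looked for in the letters. Read from the other strand that word is TTCCTC. RefSeq promoter windows on GRCm38.p6, from 250 bases before to 50 bases after the start, matched 26 of the 35 genes. Each line runs 5′ to 3′ in the direction of the gene from base -100 to base -7 relative to the start, and capitals mark the core word on either strand. The first 5 carry the word and the last, from the gene with the smallest p-value in visceral fat, does not.
Itgam, chr7:128062540-128062633, plus strand: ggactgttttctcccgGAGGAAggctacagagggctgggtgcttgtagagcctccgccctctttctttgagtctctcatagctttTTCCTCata
Fcgr1, chr3:96293976-96294069, minus strand: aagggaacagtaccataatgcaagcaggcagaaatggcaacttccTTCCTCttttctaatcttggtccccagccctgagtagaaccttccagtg
Fcgr4, chr1:171018826-171018919, plus strand: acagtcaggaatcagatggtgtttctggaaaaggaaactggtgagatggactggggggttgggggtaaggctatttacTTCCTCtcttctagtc
Cd53, chr3:106790156-106790249, minus strand: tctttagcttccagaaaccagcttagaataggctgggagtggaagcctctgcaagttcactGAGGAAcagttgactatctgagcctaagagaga
Clec7a, chr6:129472786-129472879, minus strand: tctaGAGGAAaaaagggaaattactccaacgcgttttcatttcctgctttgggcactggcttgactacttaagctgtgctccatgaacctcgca
Irf8, chr8:120736258-120736351, plus strand: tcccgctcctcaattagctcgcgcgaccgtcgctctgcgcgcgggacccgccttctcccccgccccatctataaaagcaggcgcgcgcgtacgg
Itgam had the word at -84 on the strand of the gene and at -15 on the other strand. The single words of Fcgr1, Fcgr4, Cd53 and Clec7a began at -55, -22, -39 and -96. Over whole windows, GAGGAA on either strand was found in 18 of the 33 windows of these genes (54.5%) and in 28.3% of all 32851 windows. Counted by gene it was found for 16 of 26 genes (61.5%), against 31.3% of 27025. The longer word GAGGAAGT, which contains it, was in 9.09% of the windows against 3.2%. For comparison, TGTGGT was in 18.2% against 16.8% and TATAAA in 12.1% against 13.6%. These matches describe letters in a window and are no evidence of binding.

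Several of the genes are neighbours. On GRCm38, Fcgr2b (chr1:170958617-170976547, minus strand), Fcgr4 (chr1:171018920-171029761, plus strand), Fcgr3 (chr1:171051174-171064935, minus strand) and Fcer1g (chr1:171229572-171234365, minus strand) lie in 1 cluster, with 42.4 kb between Fcgr2b and Fcgr4, 21.4 kb between Fcgr4 and Fcgr3 and 165 kb between Fcgr3 and Fcer1g. Clec4n and Clec4d are 15.1 kb apart on chromosome 6, and Ms4a6c and Ms4a7 are 133 kb apart on chromosome 19. Some share sequence with other genes, so that the authors' counting could have split or dropped their reads. Of the 50-base words of its transcripts, Itgam shared 66.3% with the annotated locus Gm49368, Lyz2 shared 15.4% with Lyz1, and Fcgr3 shared 9.58% with Fcgr2b. Values of these genes are uncertain to that extent.

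Per transcript length, in the authors' FPKM, Lyz2, which encodes the lysozyme of myeloid cells, was the highest of the 35 genes in each of the 6 groups without NaKtide. On the control diet its level was 48.2 ± 21.7 FPKM in liver (SD, n = 5), 239 ± 151 in subcutaneous fat and 111 ± 60.6 in visceral fat. On the Western diet it was 69.2 ± 21.9, 263 ± 50 and 582 ± 155 in the same tissues. In visceral fat on the Western diet it was followed by Cd68, a lysosomal glycoprotein of phagocytes (123 FPKM), Laptm5 (105), Fcer1g (84.8), Fcgr3 (47.6) and Csf1r (41.5). The lowest 4 there were Tlr4 (1.75), Clec4d (1.58), Clec4n (1.53) and Tlr7 (1.22), so the list spanned more than 2 orders of magnitude. In control liver Lyz2 was followed by Fcer1g (19.6), Mpeg1 (13.0) and Lcp1 (10.2), and Tlr4 was lowest (0.0727). Adgre1, which encodes F4/80, stood at 0.701 FPKM in control liver, 4.42 in control subcutaneous fat, 1.24 in control visceral fat and 21.0 ± 15.3 in Western visceral fat. The plot of FPKM by gene shows the Western visceral group above the 3 control groups for nearly the whole list.

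**Figure D1:**
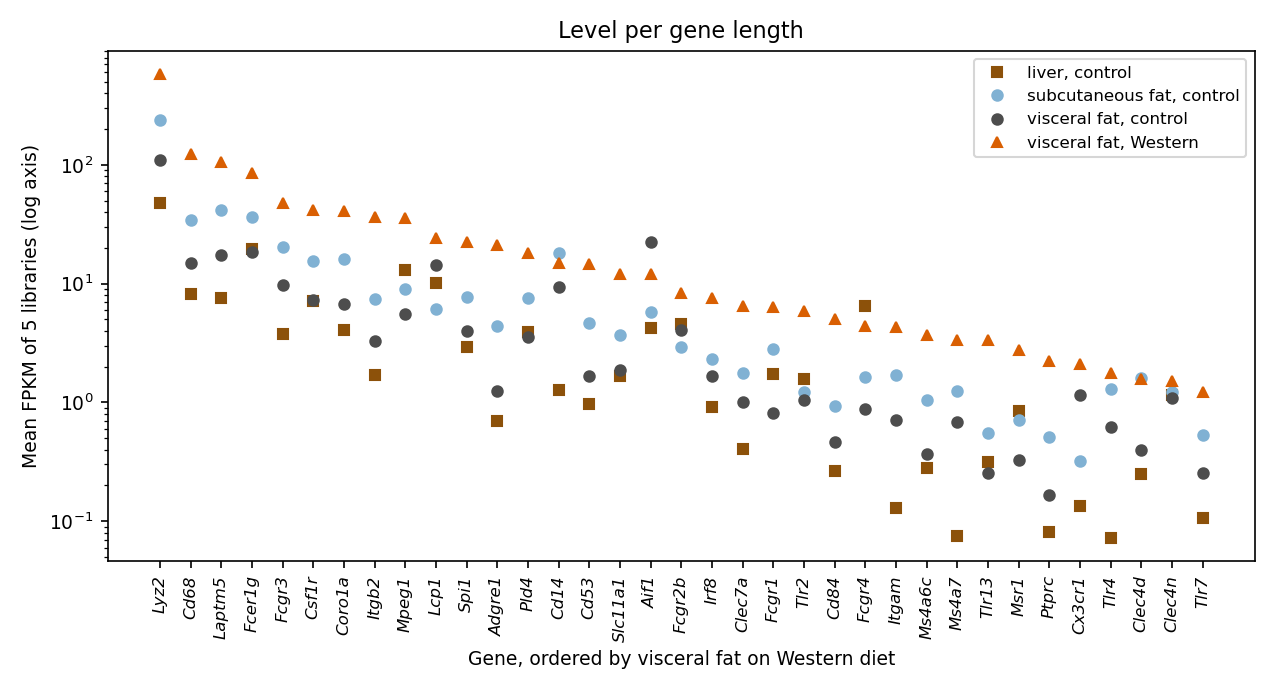
Mean FPKM of 5 libraries (log axis) for each of the 35 genes, ordered by their level in visceral fat on the Western diet, with control liver, control subcutaneous fat and control visceral fat beside it. Lyz2 leads in each group, and the Western visceral points lie to the high side for most genes.

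In visceral fat the 35 genes as a list were low in 2 groups and high in the other 2. Their summed level was 611 to 990 CPM in the 5 control libraries (median 872) and 937 to 1836 CPM in the Western libraries with NaKtide (median 1002). It was 2708 to 5660 CPM in the Western libraries (median 3406) and 2823 to 4391 CPM in the control libraries with NaKtide (median 3078). The highest library of either low group was thus under the lowest library of either high group. In the other tissues the sums were closer together. They ran from 214 to 599 CPM over the 3 liver groups other than Western with NaKtide, which reached 687 to 855 CPM, and from 615 to 3607 CPM over the 4 subcutaneous groups, each of which overlapped every other.

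**Figure D2:**
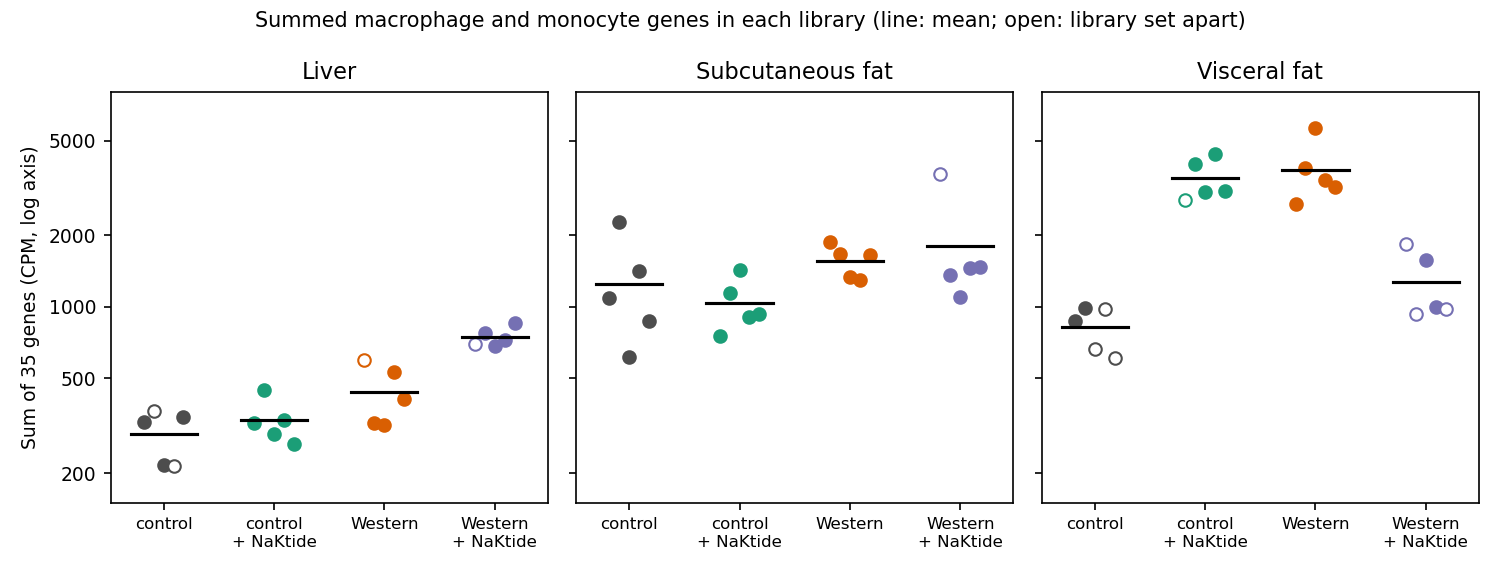
Summed CPM of the 35 genes in each of the 60 libraries (log axis), by tissue and group, with the group mean as a line and open circles for libraries that stand apart. CPM was scaled within each tissue, so levels are to be compared within a panel; in visceral fat the control and the Western with NaKtide libraries lie under the other 2 groups.

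Between the Western and the control diet without NaKtide, 29 of the 35 genes were called higher in visceral fat and none was called lower. Of all 17235 genes tested, 10.5% were called higher and 24.9% were called in either direction. The median change of the 35 genes was 2.49 on the log2 scale, beside -0.22 over all genes tested. For 29 genes all 5 Western libraries lay above all 5 control libraries, which held for 8.02% of all genes. NaKtide on the Western diet went with lower levels of 26 of the 35 genes and with a higher level of none (6.95% of all genes were called lower and 13.2% in either direction), with a median change of -1.82 beside 0.03. All 5 libraries with NaKtide lay under all 5 without it for 24 genes, against 7.58% of all genes. On the control diet the difference ran the other way: with NaKtide 28 of the 35 genes were called higher and none lower (5.26% of all genes were called higher and 7.15% in either direction), with a median of 2.39 beside -0.23, and all libraries with NaKtide lay above all without it for 28 genes against 5.95%. The difference between these NaKtide effects was tested as an interaction, which was called negative for 28 genes (13.4% of all genes, and 32.2% in either direction), with a median of -4.08 beside 0.30. The 4 comparisons share libraries, so they are not independent of each other. NaKtide itself was not measured as a gene here, so the direction of each visceral NaKtide and interaction value rests on the group labels as given, and whether groups were exchanged was not tested.

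By role, the Western diet comparison called 6 of 8 cell type markers, 3 of 3 growth factor receptor and transcription factor genes, 6 of 6 integrin and leukocyte genes, 4 of 5 Fc receptor genes, 7 of 9 receptors for microbial molecules and 3 of 4 phagosome and cytoskeleton genes. NaKtide on the Western diet went with lower levels of 6, 3, 6, 4, 4 and 3 of them. On the control diet it went with higher levels of 6, 3, 6, 4, 6 and 3 of them.

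**Figure D3:**
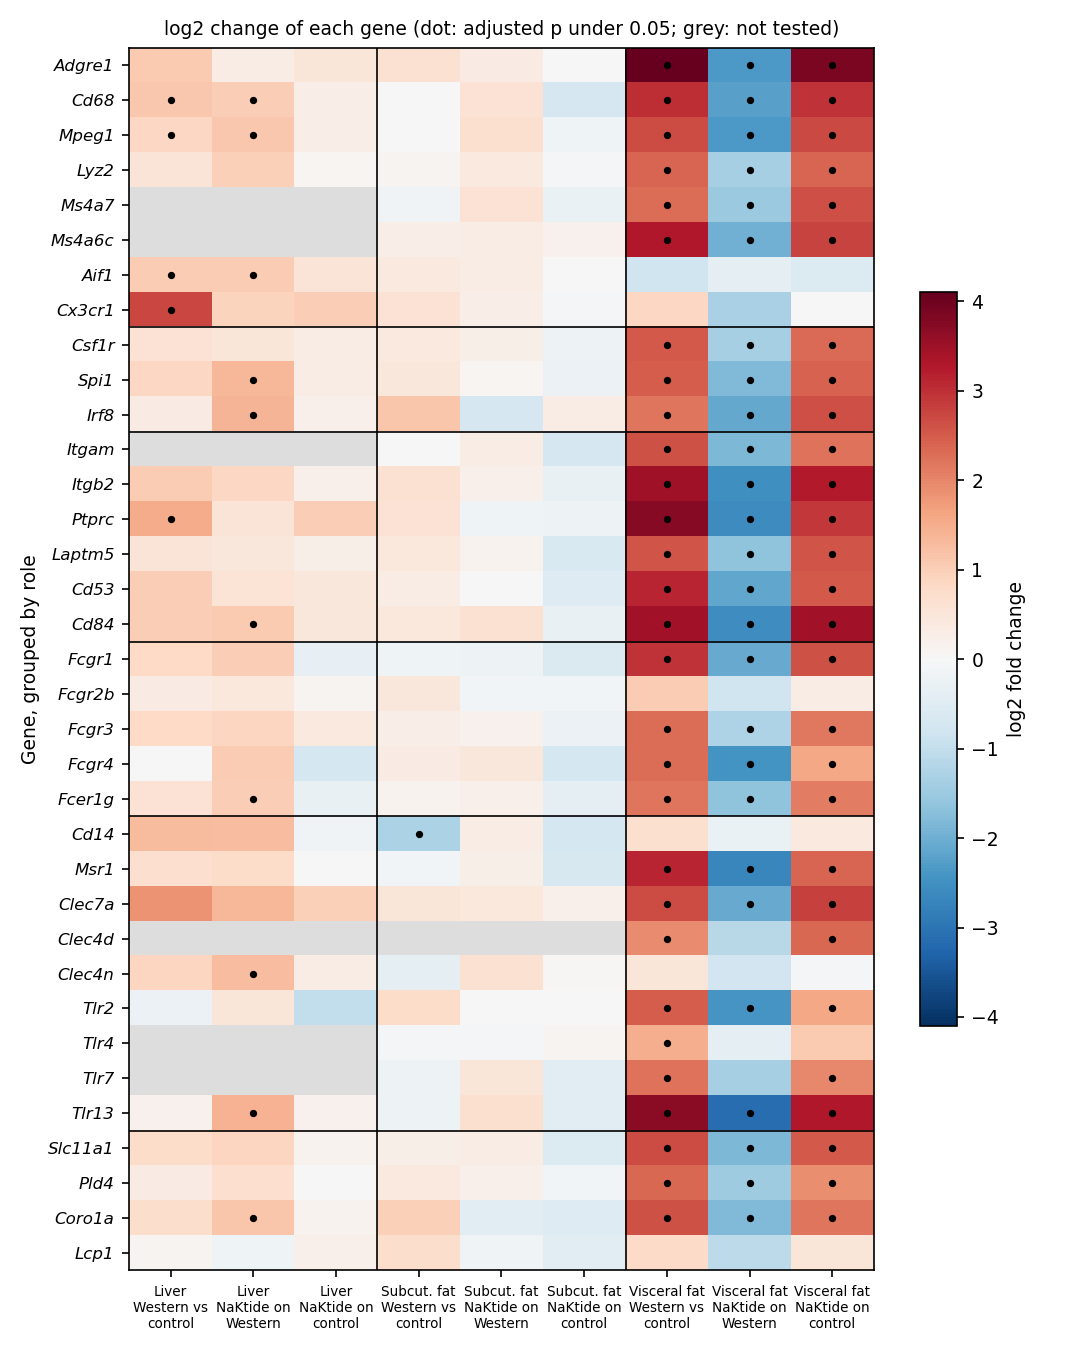
Log2 fold change of each of the 35 genes (rows, grouped by role) in 9 comparisons (columns: diet and NaKtide effects in each tissue), with a dot where the adjusted p was under 0.05 and grey where a gene was not tested. The visceral columns are red, blue and red for most genes, the subcutaneous columns hold 1 dot, and the liver columns hold 5, 10 and 0.

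Among the cell type markers, Adgre1 moved furthest. It was at 8.31, 9.05, 3.14, 2.13 and 2.95 CPM in visceral control libraries 1 to 5 and at 68.9, 42.9, 201, 66.8 and 59.5 CPM in the Western libraries. The lowest Western library was over 4 times the highest control library, and the log2 change was 4.09 ± 0.70 (SE, adjusted p = 0.00098). With NaKtide it was at 41.3, 82.5, 51.7, 136 and 63.7 CPM on the control diet and at 46, 9.3, 18.7, 8.35 and 2.45 CPM on the Western diet. Western with NaKtide library 1, the one with mesothelial genes near 0, reached into the Western range, and the change was -2.36 ± 0.64 (adjusted p = 0.024) on that diet and 3.86 ± 0.69 (adjusted p = 0.0022) on the control diet. The call on the Western diet was lost without Western library 3, or without Western with NaKtide library 2 or 4.

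Cd68 stood at 29.6, 31.4, 17.8, 30.8 and 10.4 CPM in control and at 95.8, 202, 353, 177 and 165 CPM in Western visceral libraries. The corresponding libraries with NaKtide held 164, 228, 148, 241 and 152 CPM on the control diet and 94.7, 23.5, 45.9, 19.9 and 29 CPM on the Western diet. The ranges of the low groups met those of the high groups nowhere: the log2 changes were 3.04 ± 0.45 for diet, -2.22 ± 0.43 for NaKtide on the Western diet and 2.96 ± 0.45 for NaKtide on the control diet (adjusted p = 0.00035, 0.0038 and 0.00074). Mpeg1, a pore-forming protein of the phagosome, was at 31.3, 36.4, 27.8, 34.3 and 24.1 CPM in control and 153, 133, 414, 151 and 145 CPM in Western libraries. With NaKtide it was at 150, 226, 187, 293 and 155 CPM on the control diet and 61.4, 23.8, 37.5, 32 and 39.4 CPM on the Western diet. The low groups overlapped each other and lay apart from both high groups, with changes of 2.69 ± 0.33, -2.36 ± 0.33 and 2.71 ± 0.33 (adjusted p = 0.00013, 0.00042 and 0.00025).

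Lyz2 was at 260, 312, 186, 125 and 53.3 CPM in control, 680, 1151, 1349, 927 and 820 CPM in Western, 800, 1215, 994, 1031 and 884 CPM in control with NaKtide and 560, 342, 559, 298 and 151 CPM in Western with NaKtide libraries. Its diet change was 2.40 ± 0.41 (adjusted p = 0.001), and its change with NaKtide on the Western diet was -1.37 ± 0.40 (adjusted p = 0.032). The latter call was lost when any 1 of 6 libraries was left out, among them Western library 3. Ms4a7, a membrane protein of tissue macrophages, was called in all 3 comparisons, with 2.29, -1.51 and 2.64 on the log2 scale, and so was its neighbour Ms4a6c, with 3.28, -1.98 and 2.77. The other 2 cell type markers were called in none. Aif1, which encodes the actin-binding protein IBA1, was at 8.69, 9.53, 15.7, 15.1 and 159 CPM in control and at 32.5, 32.3, 18.7, 16.8 and 17.3 CPM in Western libraries, and control library 5 alone exceeded every other visceral library. Cx3cr1, the fractalkine receptor of monocytes, was at 2.46, 3.22, 6.08, 14.5 and 7.1 CPM in control and at 10.7, 8.26, 14.2, 14.2 and 13.3 CPM in Western libraries, and the groups overlapped in control library 4. The diet changes of Aif1 (-0.82, adjusted p = 0.33) and Cx3cr1 (0.86, adjusted p = 0.28) did not pass.

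All 3 genes of the growth factor receptor and transcription factor group were called in each visceral comparison. Csf1r was at 71.4, 73.4, 38.4, 24.2 and 19.4 CPM in control, 188, 248, 398, 242 and 229 CPM in Western, 168, 239, 178, 335 and 205 CPM in control with NaKtide and 176, 75.1, 150, 77.7 and 32.7 CPM in Western with NaKtide libraries. The diet change was 2.52 ± 0.44 (adjusted p = 0.0012) and the NaKtide changes were -1.35 ± 0.42 on the Western diet (adjusted p = 0.044) and 2.31 ± 0.44 on the control diet (adjusted p = 0.0033). On the Western diet the groups nearly touched at 176 and 188 CPM, and the call was lost when any 1 of 7 libraries was left out. Spi1 was at 21, 22, 10.8, 11.4 and 4.02 CPM in control, 46.7, 99.7, 94.1, 78.5 and 68.5 CPM in Western, 62.8, 83.5, 61.5, 90 and 69.3 CPM in control with NaKtide and 29, 13.9, 30.2, 22.5 and 13.8 CPM in Western with NaKtide libraries. Low and high groups did not overlap, and the changes were 2.48 ± 0.37, -1.82 ± 0.36 and 2.41 ± 0.37 (adjusted p = 0.00038, 0.0042 and 0.00086).

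Irf8 had the smallest p of the 35 genes in each of the 3 visceral comparisons and in the interaction. It was at 13.6, 14.9, 16.1, 20.7 and 9.38 CPM in control libraries and at 55.8, 68.2, 84.6, 68.7 and 67.3 CPM in Western libraries. It was at 64.8, 92.5, 89.8, 126 and 89.5 CPM in control libraries with NaKtide and at 17.3, 8.73, 18.9, 15.5 and 19.6 CPM in Western libraries with NaKtide. No library of the low groups exceeded 20.7 CPM and none of the high groups was under 55.8 CPM. The changes were 2.21 ± 0.24 for diet, -2.11 ± 0.24 for NaKtide on the Western diet and 2.63 ± 0.24 for NaKtide on the control diet (adjusted p = 6.8e-05, 0.00011 and 1.3e-05), and the interaction was -4.74 ± 0.34 (adjusted p = 1.6e-07). Under no alternative that was run did Irf8 lose any of these 4 calls.

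**Figure D4:**
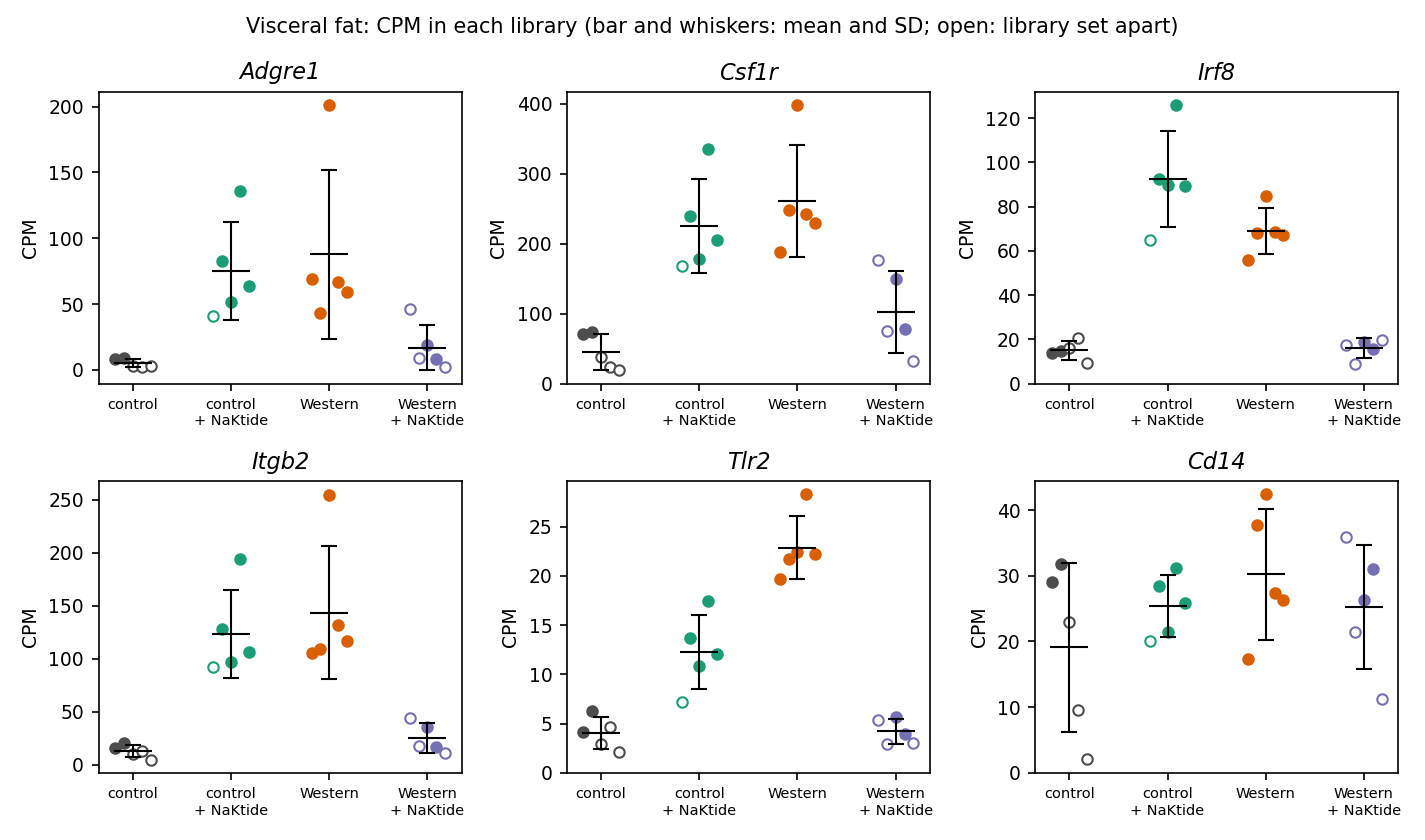
CPM of Adgre1, Csf1r, Irf8, Itgb2, Tlr2 and Cd14 in the 20 visceral fat libraries by group, with bars for the mean, whiskers for the SD (n = 5) and open circles for libraries that stand apart. Irf8, Itgb2 and Tlr2 separate the Western group from the control group and from the Western group with NaKtide, while Cd14 overlaps in all 4 groups.

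The integrin and leukocyte genes were all called in each visceral comparison. Itgb2, the β chain shared by leukocyte integrins, was at 15.9, 20.6, 10.6, 12.8 and 4.96 CPM in control, 105, 109, 255, 132 and 117 CPM in Western, 92.4, 128, 97.4, 194 and 106 CPM in control with NaKtide and 43.9, 17.3, 36.1, 16.9 and 11 CPM in Western with NaKtide libraries. Its changes were 3.47 ± 0.44, -2.51 ± 0.42 and 3.25 ± 0.43 (adjusted p = 0.00014, 0.0013 and 0.00033), with no overlap between low and high groups. Itgam, the α chain that pairs with it in complement receptor 3, changed by 2.60, -1.84 and 2.24 on the log2 scale. Ptprc, the leukocyte phosphatase CD45, changed by 3.73, -2.58 and 2.90. Cd84, Cd53 and Laptm5, which encode a receptor of the SLAM family, a tetraspanin and a lysosomal membrane protein, had diet changes of 3.43, 3.13 and 2.58.

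Fc receptors bind the constant part of antibodies. Fcgr1, the high-affinity receptor for IgG, was at 1.51, 3.69, 3.53, 2.71 and 2.01 CPM in control, 14.4, 26.5, 25.6, 21.1 and 18.2 CPM in Western, 16.2, 16.8, 12, 19.9 and 17 CPM in control with NaKtide and 9.77, 2.39, 5.79, 3.02 and 3.97 CPM in Western with NaKtide libraries. All Western libraries exceeded all control libraries and all Western libraries with NaKtide, with changes of 2.97 ± 0.36 for diet and -2.07 ± 0.35 for NaKtide (adjusted p = 0.00012 and 0.0013). Fcgr3 was at 25.1, 34.4, 13.5, 13.8 and 20.9 CPM in control, 60.8, 133, 145, 97.4 and 94.5 CPM in Western, 76.6, 108, 92.4, 109 and 94.5 CPM in control with NaKtide and 73.8, 40.7, 52.3, 38.7 and 15.3 CPM in Western with NaKtide libraries. Its NaKtide change on the Western diet, -1.26 ± 0.34 (adjusted p = 0.022), came from groups that overlapped, and it was lost without Western library 3 or Western with NaKtide library 2 or 4. Fcgr4 was low, at 2.08, 1.79, 1.57, 1.16 and 0.536 CPM in control, 5.19, 8.26, 10.1, 5.86 and 6.03 CPM in Western, 4.17, 6.14, 3.38, 4.94 and 2.73 CPM in control with NaKtide and 2.44, 0.423, 1.51, 1.62 and 0.306 CPM in Western with NaKtide libraries. It was called in all 3 comparisons (2.30, -2.45 and 1.58), and the last call (adjusted p = 0.044) was lost when any 1 of 7 libraries was left out. Fcer1g, the signalling chain of several Fc receptors, changed by 2.21, -1.64 and 2.11.

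Fcgr2b, the inhibitory member of the family, was the exception. It was at 15.1, 13.6, 17.8, 81.6 and 23 CPM in control, 54.3, 59.7, 70.2, 62.5 and 60.9 CPM in Western, 29.7, 34.6, 34.8, 52.4 and 37.3 CPM in control with NaKtide and 36.4, 22.1, 35, 13.7 and 66.9 CPM in Western with NaKtide libraries. The highest control library was tract-rich library 4 and the highest Western library with NaKtide was tract-rich library 5. The changes of 1.03, -0.82 and 0.32 did not pass (adjusted p = 0.093, 0.20 and 0.62).

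Among the receptors for microbial and modified molecules, Tlr2, which senses bacterial lipopeptides, was at 4.15, 6.31, 2.94, 4.65 and 2.14 CPM in control, 19.7, 21.7, 22.4, 28.3 and 22.2 CPM in Western, 7.2, 13.7, 10.8, 17.4 and 12.1 CPM in control with NaKtide and 5.4, 2.96, 5.66, 3.94 and 3.06 CPM in Western with NaKtide libraries. The Western libraries lay above all others, and the changes were 2.49 ± 0.30, -2.43 ± 0.30 and 1.59 ± 0.30 (adjusted p = 0.00012, 0.00026 and 0.0029). Tlr13, a sensor of bacterial ribosomal RNA, was at 0.755, 1.79, 1.57, 1.94 and 0.938 CPM in control, 12.3, 10.5, 39.6, 18 and 12.1 CPM in Western, 9.85, 14, 8.92, 24.8 and 11.6 CPM in control with NaKtide and 3.98, 1.55, 1.64, 0.928 and 2.45 CPM in Western with NaKtide libraries. Its changes were 3.71 ± 0.49, -3.12 ± 0.47 and 3.29 ± 0.48 (adjusted p = 0.00016, 0.00069 and 0.0006), the largest of this role in each direction. Msr1, a scavenger receptor for modified lipoproteins, was at 3.02, 2.5, 2.94, 1.36 and 3.22 CPM in control, 13.6, 20.8, 37.2, 22.1 and 19.4 CPM in Western, 9.72, 13.3, 10.9, 21.2 and 13.7 CPM in control with NaKtide and 6.43, 3.1, 4.4, 2.55 and 0.917 CPM in Western with NaKtide libraries. The Western libraries were again above both low groups without overlap, with changes of 3.11 ± 0.42 and -2.67 ± 0.41 (adjusted p = 0.00019 and 0.00074). Clec7a, the β-glucan receptor dectin-1, changed by 2.68, -2.07 and 2.79.

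The rest of this role was less uniform. Tlr7, a sensor of single-stranded RNA, rose with diet (2.24, adjusted p = 0.0083) and was not called with NaKtide on the Western diet (-1.35, adjusted p = 0.078). Tlr4, the receptor for bacterial lipopolysaccharide, rose with diet (1.49 ± 0.46, adjusted p = 0.031, a call lost without any 1 of 5 libraries) and its change with NaKtide on the Western diet was -0.38 (adjusted p = 0.60). Cd14, the co-receptor of Tlr4, was at 29.1, 31.8, 22.9, 9.5 and 2.14 CPM in control, 17.3, 37.8, 42.4, 27.4 and 26.3 CPM in Western, 20, 28.5, 21.5, 31.2 and 25.9 CPM in control with NaKtide and 35.9, 21.4, 26.3, 31.1 and 11.3 CPM in Western with NaKtide libraries. The 4 groups overlapped, and no Cd14 change passed (0.66, -0.26 and 0.41, adjusted p = 0.29, 0.75 and 0.55). Clec4d and Clec4n lie side by side and encode receptors for fungal cell walls, yet Clec4d rose with diet (1.94, adjusted p = 0.017) and the change of Clec4n was 0.49 (adjusted p = 0.29); whether they differ from each other was not tested. In the last role, Slc11a1, a metal transporter of the phagosome, changed by 2.69, -1.85 and 2.53, Pld4 by 2.35, -1.45 and 1.90, and the actin regulator Coro1a by 2.60, -1.81 and 2.19. The actin bundler Lcp1 was called in none, and its highest control library was tract-rich library 4, at 444 CPM.

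The tract-rich libraries made up 3 of the 5 control, 1 of the 5 control with NaKtide and 2 of the 5 Western with NaKtide libraries. Without all 6, the diet comparison called 30 of the 35 genes, 26 of them called before (14.0% of all genes were called), NaKtide on the Western diet 29 (20.1%), NaKtide on the control diet 28 (10.7%) and the interaction 32 (24.7%). The genes that then passed for diet were Fcgr2b (2.11, adjusted p = 0.0018), Lcp1 (2.56, adjusted p = 0.0029), Cx3cr1 (2.09, adjusted p = 0.013) and Aif1 (1.37, adjusted p = 0.028), and those lost were Tlr7, Tlr4 and Clec4d. Irf8 kept changes of 2.27, -1.98 and 2.80, and Adgre1 changes of 3.33, -1.81 and 3.25 (adjusted p = 0.013, 0.045 and 0.019). The diet change of Cd14 was -0.01 (adjusted p = 0.99). Leaving out Western with NaKtide library 1 as well gave 29 genes for NaKtide on the Western diet.

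Other cell markers moved beside the macrophage genes in visceral fat. For comparison, 10.5% of all genes tested there were called higher for diet and 6.95% lower with NaKtide on the Western diet. Fibroblast progenitor genes (6 genes) summed to 109 to 915 CPM in control, 1218 to 2628 CPM in Western, 1170 to 2441 CPM in control with NaKtide and 524 to 2663 CPM in Western with NaKtide libraries, and 2 of the 6 were called higher for diet. Dendritic cell genes summed to 14.2 to 54.9, 69.8 to 109, 62.5 to 100 and 18.1 to 102 CPM in the same groups, with 3 of the 6 tested called higher for diet. Lymphocyte genes ran from 10.4 to 433, 22.2 to 50.1, 18.7 to 41.5 and 9.64 to 411 CPM, with 5 of 9 called higher for diet and 4 lower with NaKtide on the Western diet. None of the 6 adipocyte genes and none of the 6 endothelial genes was called in any of the 3 comparisons. Their sums varied widely within the control group, so the lack of a call does not show equal content. The adipocyte genes summed to 410 to 10207, 6900 to 8856, 6019 to 10136 and 3191 to 10993 CPM in the same groups. The endothelial genes summed to 33.9 to 1181, 424 to 915, 284 to 676 and 219 to 820 CPM. The mitochondrial share of counts was 0.934% to 6.46% in control, 1.73% to 2.63% in Western, 1.91% to 2.46% in control with NaKtide and 2.64% to 6.24% in Western with NaKtide libraries. The part of these in the macrophage gene result was not tested.

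In liver the Western diet without NaKtide went with higher levels of 5 of the 29 genes tested and lower levels of none (4.75% of all 12991 genes were called higher and 8.44% in either direction). The median change was 0.81 on the log2 scale, beside 0.03 over all genes. The 5 genes were 4 cell type markers and Ptprc, and 16 of the 29 had an unadjusted p under 0.05. Ptprc was at 0.475, 0.7, 1.26, 1.52 and 0.977 CPM in control and at 3.74, 2.64, 2.16, 3.89 and 1.55 CPM in Western livers. It was the only one of the 29 whose Western livers all lay above the control livers (3.99% of all genes), with a change of 1.51 ± 0.37 (adjusted p = 0.013, and 0.0075 to 0.047 over the alternatives). These Ptprc levels rest on 2, 4, 4, 7 and 5 counts in control and 22, 16, 12, 23 and 8 counts in Western livers. Cx3cr1 was at 0.237, 0.874, 0.316, 0.217 and 0.391 CPM in control and 9.18, 2.31, 0.54, 0.846 and 2.14 CPM in Western livers, Western liver 1 was far above the others, and the change of 2.74 ± 0.72 (adjusted p = 0.02) was lost without it. Aif1 (1.05), Cd68 (1.12) and Mpeg1 (0.85) were also called (adjusted p = 0.024, 0.027 and 0.045), and each lost its call without any 1 of 4 or 5 libraries, Western liver 1 among them.

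Western liver 1 was the highest of its group for 22 of the 35 genes. Without it only Ptprc stayed called (6.84% of all genes), and the same held without Western liver 1 and Western with NaKtide liver 1 together (8.28% of all genes, change 1.37, adjusted p = 0.035, median of the list 0.53). Without control liver 3 or 4, or Western liver 4, 3, 2 and 3 genes were called (8.6%, 7.11% and 8.3% of all genes). Control livers 2 and 4 held skeletal muscle genes at 574 and 1266 CPM, and without both of them Ptprc (1.64, adjusted p = 0.047) and Clec7a (3.42, adjusted p = 0.032) were called (4.87% of all genes). The control livers left, 1, 3 and 5, held 3, 0 and 0 counts of Clec7a, so its change rests on very few reads.

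Livers with NaKtide on the Western diet had higher levels of 10 of the 29 genes and lower levels of none (2.24% of all genes called higher, 4.79% in either direction), with a median of 0.98 beside -0.02. The 10 genes were Irf8, Spi1, Mpeg1, Aif1, Fcer1g, Cd84, Clec4n, Tlr13, Cd68 and Coro1a. All livers with NaKtide lay above all without it for 6 genes, namely Spi1, Aif1, Tlr13, Lyz2, Fcgr3 and Itgb2, against 1.99% of all genes. For Tlr13 this rests on few reads, with 10, 4, 2, 8 and 5 counts without and 15, 11, 7, 13 and 16 counts with NaKtide. Its groups came as near as 1.7 CPM (Western liver 1) and 1.88 CPM (Western with NaKtide liver 3). In visceral fat the same comparison had gone the other way for the list, and the difference between the tissues was not tested.

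Both transcription factor genes led the liver result. Spi1 was at 18, 5.77, 5.04, 10.3 and 8.15 CPM in Western livers and at 23.6, 25.6, 23.4, 24.4 and 24.4 CPM in Western livers with NaKtide. The livers with NaKtide lay within a narrow range above all the others, and the change was 1.36 ± 0.29 (adjusted p = 0.0097, and 0.00027 to 0.038 over the alternatives). Without NaKtide or the Western diet it was at 5.22, 7, 4.74, 2.6 and 6.65 CPM in control livers, and at 5.63, 11.2, 5.54, 6.81 and 4.17 CPM in control livers with NaKtide. Irf8 was at 4.04, 5.6, 4.74, 4.98 and 2.54 CPM in control, 5.63, 5.08, 4.91, 5.14 and 4.33 CPM in control with NaKtide, 9.35, 4.78, 3.78, 4.9 and 4.85 CPM in Western and 8.23, 16, 14.8, 16.6 and 17.3 CPM in Western with NaKtide livers. Western liver 1 and Western with NaKtide liver 1 overlapped, at 9.35 and 8.23 CPM, and the other 4 livers with NaKtide stood above every other liver. The change was 1.38 ± 0.24 (adjusted p = 0.003, and 9.8e-06 to 0.019 over the alternatives). The third gene of this role, Csf1r, was at 44.5, 23.1, 26.4, 46.7 and 36.7 CPM in Western and 55.7, 64.9, 44.8, 43.1 and 40.9 CPM in Western with NaKtide livers, and its change of 0.50 did not pass (adjusted p = 0.22).

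Of the cell type markers in liver, Mpeg1 was at 108, 50.1, 51.4, 81 and 50.5 CPM in Western and 107, 144, 136, 157 and 182 CPM in Western with NaKtide livers. The groups touched only at Western liver 1 (108 CPM) and Western with NaKtide liver 1 (107 CPM), and the change was 1.09 ± 0.26 (adjusted p = 0.017). Aif1 was at 13.9, 5.44, 4.68, 8.63 and 12 CPM and 14.8, 20.7, 21.2, 20.8 and 14.6 CPM in the same groups, with a change of 1.04 ± 0.26 (adjusted p = 0.023). Cd68 was at 8.79, 9.79, 4.11, 3.68 and 8.41 CPM in control, 28.9, 7.41, 8.99, 17.9 and 13.6 CPM in Western and 36.4, 31.8, 24.7, 29.7 and 32.1 CPM in Western with NaKtide livers, so it was called for both diet and NaKtide (1.12 and 1.01). Lyz2 was at 79.9, 45.3, 38.5, 79.3 and 68.9 CPM and 114, 121, 115, 112 and 153 CPM in Western livers without and with NaKtide, without overlap, and its change of 0.98 missed the threshold (adjusted p = 0.062). Adgre1, the marker usually used for Kupffer cells, was at 1.87, 2.14, 2.52, 7.78 and 2.52 CPM and 5.63, 3.71, 5.1, 1.49 and 4.51 CPM in the same groups, which overlapped, with a change of 0.30 ± 0.43 (adjusted p = 0.69).

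**Figure D5:**
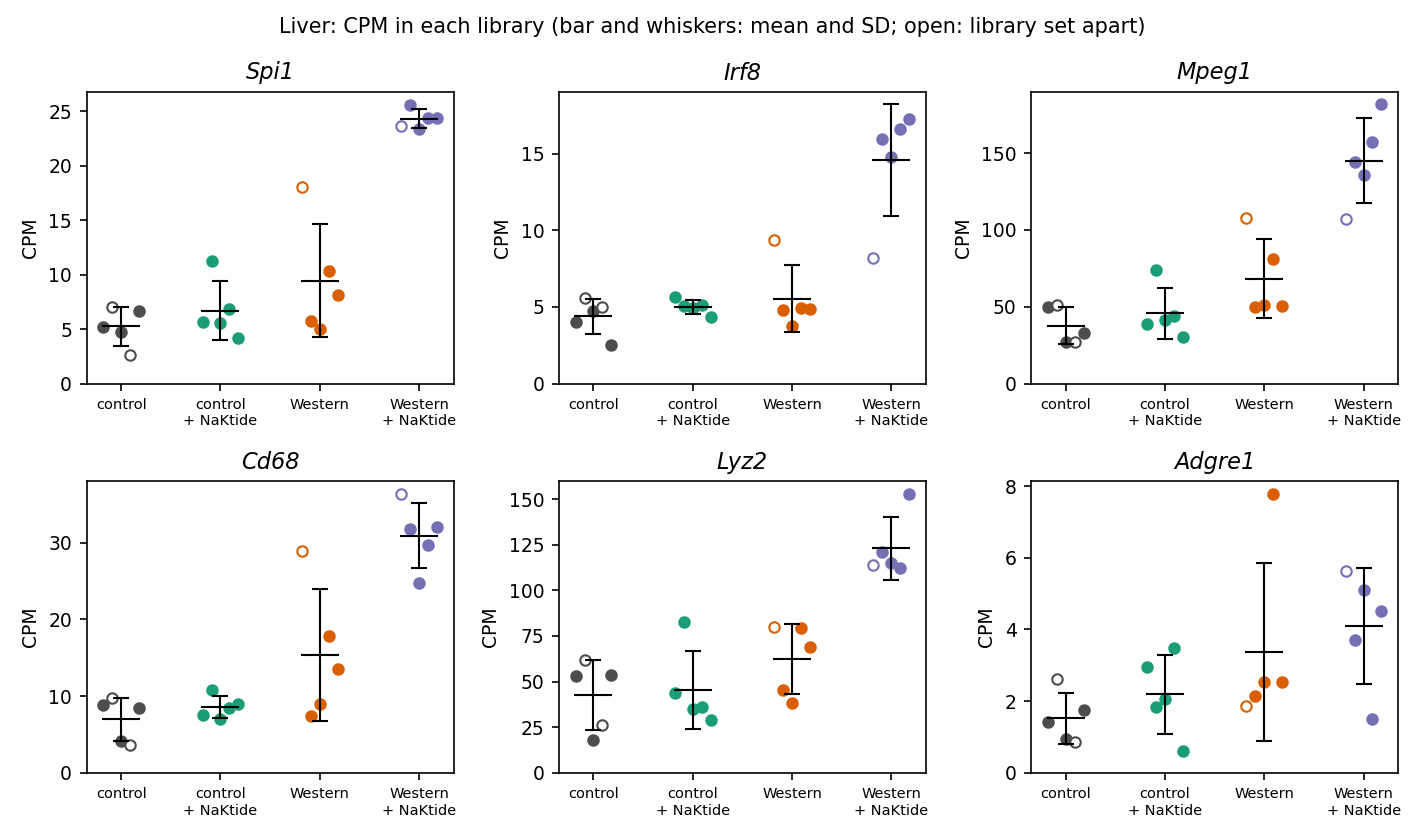
CPM of Spi1, Irf8, Mpeg1, Cd68, Lyz2 and Adgre1 in the 20 liver libraries by group, with bars for the mean, whiskers for the SD (n = 5) and open circles for libraries that stand apart. The Western livers with NaKtide lie highest for Spi1, at 23.4 to 25.6 CPM, and overlap the Western livers for Adgre1.

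Fcer1g was called (1.01 ± 0.27, adjusted p = 0.037) at 31.6, 10.9, 9.71, 14.5 and 20.6 CPM in Western and 36.1, 37.9, 27.4, 34.2 and 40.4 CPM in Western with NaKtide livers, where Western liver 1 overlapped the other group. The IgG receptors themselves were not called. Fcgr1 was at 11.9, 2.14, 3.24, 4.06 and 6.21 CPM and 7.41, 14.1, 10.7, 13.4 and 9.82 CPM in these groups (1.00, adjusted p = 0.11). Fcgr3 was at 9.52, 3.95, 4.68, 10.7 and 10.3 CPM and 14.1, 13.1, 14.5, 13.4 and 16.5 CPM without overlap (0.87, adjusted p = 0.064). Fcgr2b changed by 0.42 and Fcgr4 by 1.03 without passing (adjusted p = 0.19 for both). Among the receptors for microbial molecules Clec4n (1.28 ± 0.35, adjusted p = 0.039) and Tlr13 (1.43 ± 0.40, adjusted p = 0.043) were called. Clec4n held 19, 7, 5, 18 and 10 counts in Western and 23, 19, 16, 24 and 28 counts in Western with NaKtide livers. Cd14 was at 7.14, 0.988, 2.7, 4.4 and 1.75 CPM and 5.49, 6.06, 5.64, 11 and 13.5 CPM (1.27, adjusted p = 0.098), with Western liver 1 in the range of the other group.

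The liver count depended on single libraries, and the share called over all genes moved with it. Without Western liver 1 it was 17 (13.6% of all genes), and without Western liver 2 or 3 it was 2 (2.68% and 1.7%). Without Western liver 4 or 5 it was 5 and 4 (2.69% and 3.26%), and without Western with NaKtide liver 2, 3, 4 or 5 it was 4, 4, 4 and 3 (2.91%, 2.64%, 2% and 2.31%). Irf8 and Spi1 were called in each of these. Without the pair numbered 1 that lay nearer each other's group, 19 of the 29 genes were called higher, the 10 above among them (27.4% of all genes were then called in either direction), with a median of 1.25, and with Irf8 at 1.82 (adjusted p = 9.8e-06) and Spi1 at 1.74 (adjusted p = 0.00027). The pair was left out because each library was seen to lie nearer the other group, which by itself widens the difference, so these larger values are no independent support. Kupffer cell genes summed to 509 to 1090 CPM in Western and 407 to 614 CPM in Western with NaKtide livers, and of the 6 tested 1, C6, was lower (-1.65 ± 0.35, adjusted p = 0.0088) and none was higher. The lower sum was that of C6, which held 251 to 598 CPM without and 78.6 to 170 CPM with NaKtide on the same scale. The other 6 Kupffer genes together held 208 to 492 CPM without and 278 to 463 CPM with NaKtide. Genes listed as cholangiocyte markers summed to 40.8 to 153 CPM in Western and 96.1 to 394 CPM in Western with NaKtide livers. Of the 4 tested only 1, Spp1, was called higher (1.71 ± 0.46, adjusted p = 0.033). Which cells its RNA came from was not tested. In this comparison 4.79% of all genes were called in either direction. Fibroblast progenitor genes summed to 145 to 392 CPM and 200 to 494 CPM, with none of 5 called. The mitochondrial share of counts was 5.64% to 11.6% in Western and 7.06% to 16.9% in Western with NaKtide livers. The part of any of these in the result was not tested.

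On the control diet no gene of the list was called with NaKtide in liver (median 0.21 beside 0.01, 1.55% of all genes called, and 1 of the 29 with an unadjusted p under 0.05). The smallest p was that of Ptprc (1.01, adjusted p = 0.17), followed by Tlr2 (-1.0, adjusted p = 0.30). The interaction between diet and NaKtide was called for none of the 29 genes (5% of all genes were called, and 8 of the 29 had an unadjusted p under 0.05), and Fcer1g (1.32 ± 0.40) and Irf8 (1.18 ± 0.36) came nearest, both with an adjusted p of 0.054. Without the pair numbered 1 it was called for 9 genes (28.2% of all genes), with Irf8 at 1.64 (adjusted p = 0.00061) and Fcer1g at 1.66 (adjusted p = 0.0031). Without Western liver 1 alone it was called for 7 (15.4% of all genes), without Western with NaKtide liver 1 for 2 (20.8%), and without control liver 3 or 5 or control with NaKtide liver 2 for 1 (2.84%, 2.64% and 9.07%).

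In subcutaneous fat the diet comparison called 1 of the 34 genes tested, Cd14, which was lower on the Western diet (3.4% of all 15226 genes were called lower and 5.61% in either direction). The median of the 34 genes was 0.33 beside -0.02, and 4 had an unadjusted p under 0.05. Cd14 was at 44.7, 26.5, 41.1, 14.7 and 43.9 CPM in control and 12.9, 12.5, 16.8, 13.2 and 14.3 CPM in Western libraries, and control library 4 lay within the Western range. Its change of -1.29 ± 0.36 (adjusted p = 0.04) was lost in 10 of the alternatives, 8 of which left out 1 of the 10 libraries, and the adjusted p ran from 0.0071 to 0.11. Skeletal muscle genes summed to 6518 to 46965 CPM in these control libraries and to 26.3 to 170 CPM in the Western libraries, and their part in this difference was not tested.

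The other genes of the list were not called. All Western libraries lay above all control libraries for 2 of them (5.64% of all genes). Tlr2 was at 5.34, 4.28, 2.56, 6.17 and 3.69 CPM in control and 6.97, 6.81, 9.75, 6.84 and 7.25 CPM in Western libraries (0.76, adjusted p = 0.065). Irf8 was at 29, 19, 11.5, 25.2 and 12.7 CPM in control and 42.2, 55.1, 36.3, 49.5 and 32.6 CPM in Western libraries (1.14, adjusted p = 0.12). In both genes the gap between the groups was small beside their ranges. Adgre1 was at 9.06, 35.3, 7.86, 22.8 and 10.5 CPM in control and 38.3, 15.1, 21.9, 18.7 and 35 CPM in Western libraries, and Cd68 at 25.8, 134, 13.9, 56.1 and 26.5 CPM and 73.6, 37.4, 43.9, 36.6 and 67.5 CPM. In both genes control library 2 was the highest control library by far, and the changes were 0.61 (adjusted p = 0.42) and 0.02 (adjusted p = 0.99).

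NaKtide called none of the 34 genes in subcutaneous fat on either diet, and none in the interaction, as 0% of all genes were called in each. No gene of the list had an unadjusted p under 0.05 in any of these comparisons by edgeR's test, against 1873, 918 and 1712 of all genes. The median changes were 0.26 on the Western diet, -0.26 on the control diet and 0.45 for the interaction, beside 0.03, 0.05 and -0.02 over all genes. On the Western diet Irf8 was at 42.9, 24.5, 24.2, 21.2 and 20.8 CPM with NaKtide (-0.69, adjusted p = 0.55), against 32.6 to 55.1 CPM without. Cd68 was at 203, 52.8, 39.5, 53.2 and 44.9 CPM and Adgre1 at 69.6, 32.1, 19.5, 18.9 and 23.9 CPM with NaKtide, and library 1, whose mesothelial genes were on the side of visceral fat, was the highest in both. That library was the highest of its group for 32 of the 35 genes and the highest of all 20 subcutaneous libraries for 26. Without it the median on the Western diet was -0.13.

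The depots were compared in 1 model of the 40 fat libraries, which tested all 35 genes. On the Western diet 8 genes were called higher in visceral than in subcutaneous fat and none lower (1.03% of all genes called higher, 2.08% in either direction), with a median of 1.30 beside 0.02, and for 24 genes all visceral libraries lay above all subcutaneous ones, against 5.41% of all genes. The 8 were Tlr2 (1.42 ± 0.26, adjusted p = 0.0032), Msr1 (2.04 ± 0.45, adjusted p = 0.013), Mpeg1 (1.93 ± 0.43, adjusted p = 0.014), Tlr13 (2.83 ± 0.67, adjusted p = 0.02), Ms4a7, Cx3cr1, Ms4a6c and Slc11a1. The count was 1, Tlr2 alone (0.551% of all genes), without visceral Western library 3, which was the highest of its group for 28 of the 35 genes, and 2 to 5 (0.605% to 0.804%) without any 1 of 6 other libraries (subcutaneous Western 1, 2, 3 and 4 and visceral Western 4 and 5). Without the tract-rich libraries, none of which is in either group, it was 26 (13.3% of all genes).

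On the control diet the order of the depots was the reverse for most of the list: 14 genes were called lower in visceral fat and 2, Aif1 and Cx3cr1, were called higher (7.33% and 19.9% of all genes, 27.2% in either direction), with a median of -1.09 beside 0.13. Cd53 (-1.53, adjusted p = 0.0097), Fcgr1 (-1.79, adjusted p = 0.011), Adgre1 (-1.85, adjusted p = 0.02), Csf1r (-1.12, adjusted p = 0.022) and Spi1 (-0.97, adjusted p = 0.037) were among the former. No gene of the list lay wholly above or wholly below in visceral libraries (2.74% and 3.35% of all genes did), and without the tract-rich libraries no gene was called (0.011% of all genes were), with a median of -0.57 and with Aif1 at -0.30 in place of 1.87. The count was 3 without visceral control library 5 (9.72% of all genes), 7 without subcutaneous control library 2 (18.8%) and 9 without visceral control library 4 (23.4%).

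The diet change itself was larger in visceral than in subcutaneous fat for 23 genes and smaller for none (1.56% of all genes, 2.23% in either direction), with a median difference of 2.13 beside -0.19. The smallest p-values belonged to Ms4a6c (2.97 ± 0.58, adjusted p = 0.011), Msr1 (3.20, adjusted p = 0.012), Cd53 (2.77, adjusted p = 0.014), Fcgr1 (3.12, adjusted p = 0.017), Tlr2 (1.69, adjusted p = 0.018) and Ms4a7 (2.42, adjusted p = 0.018). Without the tract-rich libraries no gene of the list was called, 0.0055% of all genes were, and the median was 1.60. Without 1 library the count was 5 (subcutaneous control 2), 8 (visceral Western 3), 9 (visceral control 3), 14 (visceral control 4) or 15 (subcutaneous Western 3 or 4), with 0.72% to 1.05% of all genes called.

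The NaKtide change on the Western diet was more negative in visceral than in subcutaneous fat for 15 genes and less so for none (1.91% of all genes, 2.92% in either direction), with a median difference of -1.84 beside 0.03. Tlr2 (-2.34 ± 0.38, adjusted p = 0.0015), Mpeg1 (-2.93 ± 0.60, adjusted p = 0.0092), Msr1 (-2.82, adjusted p = 0.015), Tlr13 (-3.69, adjusted p = 0.026), Fcgr4 (-2.84, adjusted p = 0.029) and Itgb2 (-2.64, adjusted p = 0.029) led. The count was 14 without the tract-rich libraries (6.57% of all genes), 7 without both libraries on the side of the other depot (1.18%) and 2 without both kinds (1.79%). It was 2 without subcutaneous Western with NaKtide library 1 alone (1.01%), and 3 to 7 (0.934% to 2.31%) without any 1 of 7 other libraries (subcutaneous Western 2, 3 and 4, visceral Western 3 and visceral Western with NaKtide 2, 4 and 5).

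The genes that work with these receptors were followed through a list of 22 signalling genes of myeloid cells and a list of 18 further growth factor and transcription factor genes. In visceral fat 14 of 22 signalling genes were called higher on the Western diet (10.5% of all genes) and 14 lower with NaKtide on that diet (6.95%). With NaKtide on the control diet 11 were called higher (5.26%). None was called the other way in these comparisons. The kinase Fgr (3.04 ± 0.37, -2.52 and 2.34), which acts below integrins and Fc receptors, was among those called. Of the transcription and growth factor list 8 of 17 tested were called higher with diet, including Irf5 (2.48). With NaKtide on the Western diet 7 were called lower, including the cytokine receptor genes Csf2ra (-1.51) and Csf3r (-2.01). With NaKtide on the control diet 5 were called higher. The shares of all genes are those just given. In liver 4 of 16 signalling genes were called higher with diet (4.75% of all genes), including the kinase Syk (1.27 ± 0.31) and Cd180 (1.41). With NaKtide on the Western diet 2 were called higher (2.24% of all genes). They were Tyrobp (1.29 ± 0.28), which encodes the adaptor DAP12, and Ptpn6 (0.50). In subcutaneous fat none of the 20 signalling genes tested was called for diet (5.61% of all genes were called in either direction).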

How the data were processed

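Polyadenylated RNA of 60 mouse libraries was read in pairs with a stranded kit, per the labels' protocols. The authors deposited raw counts per gene, normalized counts, which are a signal made by dividing counts by 1 size factor per library, and FPKM, per the file headers. Trimmomatic 0.38, HISAT2 2.1.0, DESeq2 1.20.0 and the build GRCm38 stand in the submitters' processing notes. For the counting program, its strand setting and its annotation, the entry is: not given in the sources used here. The normalized signal deposited by the authors was only checked against the counts.

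Counts as deposited were tested in R 4.3.3 with edgeR 4.0.16 (limma 3.58.1): genes kept by filterByExpr over the groups, TMM scaling, the quasi-likelihood F test, Benjamini-Hochberg adjustment and a threshold of 0.05. Each tissue had 1 model of 20 libraries and 4 groups, which share 1 estimate of the spread, and the depots 1 model of 40 libraries and 8 groups. Logged levels used a prior count of 2. The procedure was tested on simulated data, with the same spread between libraries for every model. That spread was smaller than those estimated in subcutaneous fat, in visceral fat and in the model of both depots. No simulated library was made to stand apart. Gene coordinates are from GENCODE M21.

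Values per library are given for up to 6 called genes with the smallest p in a comparison, or 2 where none was called, and for Adgre1, Cd68, Csf1r, Lyz2, Cd14, Spi1 and the 4 Fcgr genes; other genes shown by library were chosen after their values were seen. From each other list up to 2 genes per direction were eligible. The 35 genes and the other lists were chosen with earlier results of these data known. Alternatives were DESeq2's size factors (RLE), no filter on low counts, the replicate number as a block, DESeq2 1.42.0, only the groups compared, and each library left out. Those without tract-rich, other-depot, numbered-pair or muscle-containing libraries (15 muscle genes over 500 CPM) were added after the data were seen.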

Additional observations from a re-analysis of the deposited data

Results flagged for a closer look

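Within each group of 5 libraries, the gap of the highest or lowest library to its neighbour was set against the range of the group. This was done for the summed level and 10 genes, and 16 of 132 sets passed Dixon's 95% limit. About 1 in 20 independent normal sets would pass it. These sets share libraries and the summed level holds the 10 genes, so 16 of 132 cannot be read against that rate. In liver the libraries so singled out were control 5 for Fcgr4 (17.2 CPM), control with NaKtide 2 for Csf1r (46.9 CPM) and Lyz2 (82.4 CPM), Western 4 for Adgre1 (7.78 CPM) and Western with NaKtide 5 for Lyz2 (153 CPM). In subcutaneous fat they were control 2 for Fcgr1 (28.9 CPM) and Fcgr4 (6.96 CPM). Subcutaneous Western with NaKtide library 1 was singled out for the summed level (3607 CPM), Lyz2 (1134 CPM), Cd68 (203 CPM), Spi1 (71.6 CPM), Adgre1 (69.6 CPM) and Fcgr1 (11 CPM). In visceral fat they were control 4 for Fcgr2b (81.6 CPM) and Western 3 for Csf1r (398 CPM) and Adgre1 (201 CPM).

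By edgeR's interaction test with Benjamini-Hochberg adjustment, the NaKtide change in visceral fat differed between the diets for 28 of the 35 genes, led by Irf8 (-4.74), Mpeg1 (-5.07), Itgb2 (-5.76), Tlr13 (-6.41), Tlr2 (-4.02) and Fcgr1 (-4.67). The diet change differed between the depots for 23 genes, led by Ms4a6c (2.97), Msr1 (3.20), Cd53 (2.77), Fcgr1 (3.12), Tlr2 (1.69) and Ms4a7 (2.42). The NaKtide change on the Western diet differed between the depots for 15 genes, led by Tlr2 (-2.34), Mpeg1 (-2.93), Msr1 (-2.82), Tlr13 (-3.69), Fcgr4 (-2.84) and Itgb2 (-2.64).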

How the results depend on the processing

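Counts under the alternatives are given here without the share called over all genes, which moved between alternatives as well. A moved count is thus not by itself a result about the list. Counts of called genes in visceral fat stayed within 1.5 times under the alternatives run. Elsewhere, the following moved, and the cause was not tested. For liver diet the count of 5 became 0 with only the groups compared, 1 without the pair numbered 1 and 2 without muscle-containing livers; for NaKtide on the Western diet in liver the count of 10 became 4 with only the groups compared and 19 without the pair. The liver interaction went from 0 to 2 with RLE scaling, 1 without the filter, 2 with DESeq2 and 9 without the pair (median 1.05). Subcutaneous diet went from 1 to 0 without the filter, and to 2 with DESeq2 or only the groups compared. The depot counts became 0 on the control diet with only the groups compared or without tract-rich libraries (Aif1 reversed to -0.3). On the Western diet they became 4 without the filter, 24 with DESeq2, 30 with only the groups compared and 26 without tract-rich libraries. The difference in diet change became 0 without tract-rich libraries. The difference in NaKtide change became 5 without the filter, 25 with DESeq2, 23 with only the groups compared, 7 without other-depot libraries and 2 without both kinds. Medians without tract-rich libraries were 2.11 for visceral diet, 1.9 for NaKtide on the control diet, -3.4 for the interaction (-3.58 without both kinds), -0.57 for the control depots and 1.6 for the depots' diet change.

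With the replicate number as a block the counts were 2 for liver diet, 6 for liver NaKtide on the Western diet, 0 for subcutaneous diet, 29, 26, 28 and 29 in visceral fat (diet, NaKtide on Western, NaKtide on control, interaction) and 17, 8, 23 and 14 for the depots. All 5 correlations between equal numbers were over 0.1 in 1 of 34 pairs of groups, visceral Western with visceral control plus NaKtide (0.194 to 0.706); over the 34 pairs they ran from -0.726 to 0.706.

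With each library left out in turn, counts ran from 1 to 7 for liver diet, 2 to 17 for liver NaKtide on Western and 0 to 7 for its interaction, 0 to 2 for subcutaneous diet, 27 to 30 for visceral diet, 21 to 27 and 26 to 28 for NaKtide on Western and control, 28 to 30 for the interaction, and 3 to 23, 1 to 12, 5 to 28 and 2 to 21 for the depots (control, Western, diet change, NaKtide change). Medians ran from 0.55 to 0.94, 0.83 to 1.24 and 0.6 to 0.95 in liver, 0.18 to 0.66 and -0.13 to 0.38 for subcutaneous diet and NaKtide on Western, -0.5 to 0.07 and 0.09 to 0.65 for NaKtide on control and the interaction, 2.29 to 2.76, -1.99 to -1.67, 2.2 to 2.69 and -4.41 to -3.9 in visceral fat, and -1.28 to -0.59, 1.06 to 1.42, 1.97 to 2.46 and -2.25 to -1.58 for the depots. Of 1245 gene results under the other alternatives 1096 kept direction and call, 148 lost the call and 1 reversed. Depth limits the liver most, where 6 genes were too low to test.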

Other observations

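Marker genes of immune cells that the list does not hold were measured in visceral fat as well. Kupffer cells are macrophages of the liver, so their genes do not stand for a separate cell type in visceral fat. Of the 6 Kupffer cell genes tested there, 3 were called higher on the Western diet, including the complement receptor gene Vsig4 (2.83) and the folate receptor gene Folr2 (2.96), and Vsig4 alone was called lower with NaKtide on that diet (-1.84, adjusted p = 0.02 by edgeR's test). Of the dendritic cell genes, Cd209a (2.84) and Flt3 (1.80) were called higher with diet and Flt3 lower with NaKtide on the Western diet, while with NaKtide on the control diet 1, Cd209a (2.43), was called. Of the 10 neutrophil genes only S100a8 was abundant enough to test, with log2 changes of 3.16 for diet, -2.79 for NaKtide on the Western diet and 4.95 for NaKtide on the control diet. The summed level of the 10 genes was 1.66 to 75.3 CPM in control (mean 23.8, median 2.94) and 5.28 to 13 CPM in Western libraries (mean 7.69, median 6.59). With NaKtide it was 16.1 to 32 CPM on the control diet (mean 26, median 26.8) and 2.14 to 62.7 CPM on the Western diet (mean 16.5, median 6.59). The means ran against S100a8 for diet and for NaKtide on the Western diet. The medians rose with diet, as S100a8 did, and were equal without and with NaKtide on the Western diet. Of the 9 lymphocyte genes tested 5 were called higher with diet, including Lck (1.98), a kinase of T cells. These comparisons share libraries. Of all genes tested in visceral fat, 10.5% were called higher with diet. With NaKtide 6.95% were called lower on the Western diet and 5.26% higher on the control diet.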
